A study of Homo sapiens with 21 samples.

Results

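The genes of oxidative phosphorylation were taken by symbol from gene expression tables of PC-9 cells. Symbols that begin with MT-ND, MT-CO, MT-ATP or MT-CYB gave the subunits encoded in mitochondrial DNA. The nuclear genes were SDHA to SDHD and those with symbols that begin with NDUFA, NDUFB, NDUFC, NDUFS, NDUFV, UQCR, COX4 to COX8 or ATP5. The rule found 109 of the 20111 genes listed, of which 13 were mitochondrially encoded and 96 nuclear, and both tables held the same members. The mitochondrial genes comprised 7 subunits of complex I, 1 of complex III, 3 of complex IV and 2 of complex V. Of the nuclear genes, 75 encode subunits in general use (37 of complex I, 4 of complex II, 8 of complex III, 11 of complex IV and 15 of complex V) and 7 encode assembly factors of complex I. The other nuclear members were 8 isoforms of restricted expression, 2 pseudogenes, 1 readthrough transcript, 1 supercomplex factor and 2 further factors.

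PC-9 is a human lung adenocarcinoma line with an activating in-frame deletion in the epidermal growth factor receptor gene, EGFR. The study sorted this line in repeated rounds for cells with the lowest or the highest EGFR level, called EGFR-low and EGFR-high, and compared their expression and their response to vorinostat (SAHA), an inhibitor of histone deacetylases. An untreated experiment held 9 libraries, 3 each of parental, EGFR-high and EGFR-low cells, harvested 24 h after seeding. A vorinostat experiment held 12 libraries, 3 each of EGFR-high and EGFR-low cells kept for 72 h in the solvent DMSO or in 1 µM SAHA. All 7 groups derive from this 1 line and share its EGFR deletion, which the labels start at E746 in every library. The labelled last residue differs in each of the 21 libraries, from A750 to A770, and was not used here. The libraries were made from polyadenylated RNA, and the values are FPKM, fragments per kilobase of transcript, scaled to the mapped fragments of the library. Summed FPKM ran from 467897 to 592942 per library. This sum is a normalized quantity, so sequencing depth is unknown. The 2 experiments were separate tables and were not tested against each other.

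Respiratory chain complexes I to IV pass electrons from NADH and succinate to oxygen. Complexes I, III and IV pump protons across the inner mitochondrial membrane, and complex V, the ATP synthase, makes ATP from the returning protons. Complex II is encoded in the nucleus alone, whereas the other complexes combine nuclear subunits with mitochondrially encoded ones, which are transcribed as long precursors and released by processing. Lung cancer cells draw on both glycolysis and respiration for energy.

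EGFR checked the labels. Untreated EGFR-low libraries held 60.2, 26.5 and 60.6 FPKM, against 269, 161 and 243 FPKM in EGFR-high and 261, 120.1 and 244 FPKM in parental cells. In DMSO the values were 43.3, 17.7 and 19.4 FPKM in EGFR-low and 83.3, 152 and 109 FPKM in EGFR-high, and in SAHA 19.7, 16.1 and 18.2 FPKM in EGFR-low and 196, 101 and 207 in EGFR-high. Every EGFR-low library lay below every EGFR-high or parental library of its experiment. Limma called EGFR lower in untreated EGFR-low than EGFR-high cells (log2 difference -2.23, SE 0.40, adjusted p = 0.011) and lower in the vorinostat experiment, with log2 differences of -2.13 (adjusted p = 0.000569) in DMSO and -3.09 (adjusted p = 4.55e-05) in SAHA. The untreated call was lost without EGFR-high 1 (adjusted p = 0.0506) or EGFR-high 3 (0.0536). Differences are on the log2(FPKM + 1) scale, a call is an adjusted p under 0.05 over all genes tested, and each group has 3 libraries. Epithelial marker genes summed to between 1551.9 and 4045.2 FPKM in every library. Of 13 markers of other cell types, 12 were in the tables, and they summed to between 20.4 and 50.01 FPKM. CD68, a macrophage marker also found in other cells, was the most abundant of them at 14.5 to 39.3 FPKM, and DCN, a fibroblast gene, was listed at 0 in all 21 libraries.

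Several libraries stood apart. EGFR-low DMSO 1 held EGFR at 43.3 FPKM, COX7B2 at 9.75 FPKM against 0.124 and 0.128 FPKM in its replicates, and traces of the leukocyte genes PTPRC (0.805 FPKM) and CD3E (0.937 FPKM). EGFR-high DMSO 3 held the next highest values of both, PTPRC at 0.2 FPKM and CD3E at 0.29 FPKM. In EGFR-low DMSO 1 MT-ATP6, MT-ATP8 and MT-CO3 were also listed at 0, while every other library of the experiment held at least 2199, 12080.7 and 2070.3 FPKM of them. EEF1A1, a translation factor gene that every cell uses, was listed at 0 in EGFR-high SAHA 2 and at 3057 FPKM or more in the other libraries of the experiment, so a value of 0 was not read as absence. In the untreated experiment the libraries numbered 2 held the highest value for 70 of 89 nuclear members and the highest shares of cytosolic ribosomal genes, 26.5% to 27.4% of summed FPKM against 13.7% to 17.3% in the others. In the vorinostat experiment the libraries numbered 1 held the highest value for 13 of 13 mitochondrial genes, and those numbered 2 for 55 of 90 nuclear members. The part of these differences in the results was not tested. Counts without single libraries, without the untreated libraries numbered 2 or without the vorinostat libraries numbered 1 stand beside the results they moved. The vorinostat experiment was not refitted without all its libraries numbered 2.

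The mitochondrial genes were the most abundant members. Averaged over 21 libraries, 12 of 13 exceeded every nuclear member, led by MT-ATP8 at 18880.1, MT-CO2 at 6379 and MT-ND3 at 5573 FPKM, and MT-ND6 held 206.8 FPKM. Of the 96 nuclear members, 34 averaged at least 100 FPKM, 49 averaged 10 to 100, 6 averaged 1 to 10 and 7 were under 1. The highest means of nuclear members over the 21 libraries were those of COX4I1, a core-associated subunit of complex IV, at 461 FPKM, ATP5J2, a membrane subunit of the ATP synthase, at 421 FPKM, and ATP5F1, its peripheral stalk subunit, at 313 FPKM. The order differed between the experiments, since ATP5F1 held 294 to 796 FPKM in the untreated and 98.1 to 231 FPKM in the vorinostat libraries. By the same mean NDUFS5, an accessory subunit, was highest of complex I at 290.1 FPKM, and UQCRH, the hinge protein, of complex III at 288 FPKM. FPKM of very short genes such as MT-ATP8 is imprecise, MT-ATP8 overlaps MT-ATP6, MT-ND4L overlaps MT-ND4, and nuclear copies of mitochondrial DNA may take some of their reads. Selection of polyadenylated RNA also affects mitochondrial transcripts unequally, since their tails are short and MT-ND6 mRNA has little or none. The pseudogenes COX6A1P2 and ATP5EP2 and the readthrough NDUFC2-KCTD14 share sequence with COX6A1, ATP5E and NDUFC2, and their values are uncertain.

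The mitochondrial share of expression varied widely between replicates. The 13 genes together took 10.2, 12.2 and 13.2% of summed FPKM in parental, 12.3, 8.53 and 10.3% in EGFR-high and 11.8, 8.95 and 6.58% in EGFR-low untreated libraries. They took 18.6, 8.96 and 10.5% in EGFR-high DMSO, 24.2, 7.27 and 10.3% in EGFR-high SAHA, 7.796, 8.303 and 16.7% in EGFR-low DMSO and 22.3, 11.8 and 12.4% in EGFR-low SAHA, where the first EGFR-low DMSO value lacks the 3 genes listed at 0. The groups overlapped in both experiments, and the highest share of 3 of the 4 vorinostat groups was in the library numbered 1. The nuclear members took less, with 1.52, 2.31 and 1.48% in parental, 1.55, 2.35 and 1.67% in EGFR-high and 1.67, 2.48 and 1.91% in EGFR-low untreated libraries. The shares of the vorinostat experiment were 1.55, 1.58 and 1.66% in EGFR-high DMSO, 1.42, 1.74 and 1.37% in EGFR-high SAHA, 1.91, 2.01 and 1.71% in EGFR-low DMSO and 1.65, 1.94 and 1.87% in EGFR-low SAHA. Every EGFR-low DMSO library lay above every EGFR-high DMSO library, whereas in SAHA the groups overlapped through EGFR-low SAHA 1. Within each replicate number in SAHA the EGFR-low share was the higher one. With the mitochondrial genes left out of the sum, the nuclear share was 1.53% to 1.903% in the 6 EGFR-high and 2.05% to 2.202% in the 6 EGFR-low libraries of that experiment, with no overlap. The ratio of mitochondrial to nuclear sums ran from 3.46 in EGFR-low 3 to 17.1 in EGFR-high SAHA 1. In bulk RNA, fewer cells with a transcript and less of it per cell cannot be told apart.

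**Figure D1:**
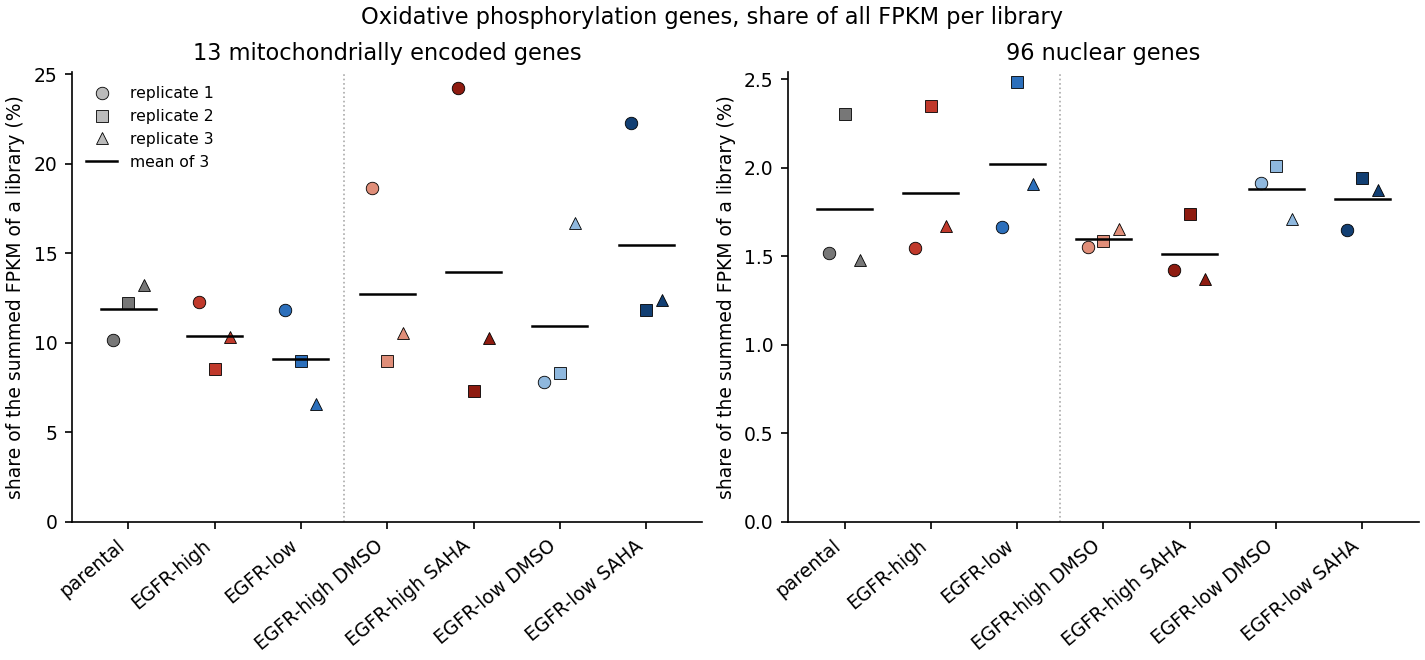
Share of summed FPKM (%) taken by the 13 mitochondrially encoded members (left) and the 96 nuclear members (right) in each of the 21 libraries, by group. Circle, square and triangle mark the libraries numbered 1, 2 and 3, and the bar is the mean of 3. Mitochondrial shares ran from 6.58% to 24.2% with overlap between groups, and nuclear shares from 1.371% to 2.48%.

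Among the mitochondrial genes of the untreated experiment, limma called none of 13 in any comparison. Of all genes it called 431 of 11305 (3.81%) between EGFR-low and EGFR-high, 181 (1.6%) between EGFR-low and parental and 8 (0.0708%) between EGFR-high and parental. At an unadjusted p under 0.05 the mitochondrial counts were 0, 1 and 0, and those of all genes 1529, 1668 and 1093. The median mitochondrial difference was -0.26 between EGFR-low and EGFR-high, beside -0.03 over all genes, and it was -0.03 without EGFR-low 3 and -0.48 without EGFR-low 1. MT-CO2, the copper-binding catalytic subunit of complex IV, held 5810.3, 9020.2 and 7954 FPKM in parental, 6699, 6668 and 6749 in EGFR-high and 5388, 4821 and 3035 in EGFR-low cells. The EGFR-low libraries all lay below the other groups, but the difference from parental was not called (log2 difference -0.80, SE 0.34, adjusted p = 0.309), nor was that from EGFR-high (log2 difference -0.65, adjusted p = 0.481). EGFR-low 3 held the lowest value of the experiment for 12 of 13 mitochondrial genes.

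In the vorinostat experiment, MT-ND6, the complex I subunit encoded on the light strand, was higher in EGFR-low cells. It held 227, 73.5 and 179.5 FPKM in EGFR-high DMSO and 372, 276 and 517 in EGFR-low DMSO, and 241, 101 and 68.1 FPKM in EGFR-high SAHA and 705, 440.2 and 348 in EGFR-low SAHA. Every EGFR-low library exceeded every EGFR-high library, and limma called it in DMSO (log2 difference 1.38, SE 0.49, adjusted p = 0.0351) and in SAHA (log2 difference 2.00, SE 0.49, adjusted p = 0.00446). It was the 1 mitochondrial gene called of 13 in each medium, beside 6334 of 12236 genes (51.8%) in DMSO and 7222 (59%) in SAHA. The DMSO call was lost without EGFR-high DMSO 2 (log2 difference 0.89, adjusted p = 0.155), EGFR-low DMSO 1 (1.38, 0.0634) or EGFR-low DMSO 3 (1.15, 0.122), and it held in 19 of 25 alternatives. It was also lost with no filter on low values (log2 difference 1.38, adjusted p = 0.0692), with median-of-ratios scaling (1.24, 0.0668) and with GC content and length removed (1.16, 0.0669), where the difference stayed above 1. Untreated, MT-ND6 held 54.7, 114 and 80.2 FPKM in parental, 81.8, 59.3 and 146 in EGFR-high and 115, 66.9 and 76.7 in EGFR-low cells, which overlapped. Whether the libraries kept strand is not given in the sources used here, and reads of MT-ND6 and of the opposite strand may not be told apart. With replicate number as a block, 4 of 13 genes were called in SAHA instead of 1, beside 7632 of 12236 genes. MT-CO2 (log2 difference 0.93, adjusted p = 0.0348) and MT-CYB, the cytochrome b of complex III (0.96, 0.0107), were then higher in EGFR-low cells. MT-ND1, a membrane subunit of complex I, was lower (-0.73, 0.0313). Without EGFR-high SAHA 1, and with no block, 3 were called, beside 7502 of 12189 genes. These were MT-ND6, MT-CO2 (log2 difference 1.53, adjusted p = 0.00859) and MT-CYB (1.63, 0.0271). Without all libraries numbered 1, an alternative chosen after seeing the data, 2 were called in DMSO and 4 in SAHA, beside 7029 and 7706 of 12101 genes.

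The other mitochondrial genes were not called in any comparison without a block and with every library, except MT-ND3 in SAHA, lower with quantile normalization (-0.76, adjusted p = 0.0419) or with GC content and length removed (-1.06, adjusted p = 0.0484). MT-ND1 held 5505, 2807 and 2479 FPKM in EGFR-high DMSO, 2855, 941 and 2152 in EGFR-low DMSO, 8566, 2221 and 2881 in EGFR-high SAHA and 4697, 1442 and 1793 in EGFR-low SAHA. MT-CO2 held 8179, 2943 and 3725 FPKM in EGFR-high DMSO, 7112, 4543 and 9255 in EGFR-low DMSO, 10279, 2757 and 3127 in EGFR-high SAHA and 10779, 6978 and 8133 in EGFR-low SAHA. Both genes overlapped between groups, with the library numbered 1 highest in all 4 groups for MT-ND1. Within each replicate number in SAHA, MT-ND1 was lower and MT-CO2 higher in EGFR-low cells. The catalytic subunit MT-CO1 of complex IV ranged from 3982 to 6959 FPKM untreated and from 2643 to 9259.7 FPKM in the vorinostat experiment. Over the same libraries MT-ND2 ranged from 1599.9 to 4139 and from 1566 to 6542 FPKM, MT-ND3 from 1769 to 3625 and from 4271 to 14524 FPKM, and MT-ND4 from 3259 to 8832 and from 2406 to 7232 FPKM, all of complex I. The remaining complex I genes MT-ND4L and MT-ND5 ranged over the 21 libraries from 2464 to 10026 and from 498 to 2183 FPKM. MT-ATP6, MT-ATP8 and MT-CO3 reached 9877, 47266 and 11896 FPKM and were listed at 0 in EGFR-low DMSO 1. With those zeros taken as missing, an alternative chosen after seeing the data, their log2 differences between EGFR-low and EGFR-high in DMSO were 0.26, -0.04 and 0.53.

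The make-up of the mitochondrial transcripts separated groups whose total share overlapped. These ratios are descriptions chosen after the values were seen, with no test. The ratio of MT-ND1 to MT-CO2 was 0.736, 0.6999 and 0.709 in untreated EGFR-low libraries, 0.524, 0.441 and 0.477 in EGFR-high and 0.433, 0.438 and 0.401 in parental libraries. With DMSO or SAHA it was 0.673, 0.954 and 0.666 in EGFR-high DMSO and 0.833, 0.806 and 0.921 in EGFR-high SAHA, against 0.401, 0.207 and 0.233 in EGFR-low DMSO and 0.436, 0.207 and 0.221 in EGFR-low SAHA. EGFR-low libraries were thus above EGFR-high libraries in the untreated experiment and below them in the vorinostat experiment, each without overlap. MT-ND1 to MT-CYB was 1.89 to 3.157 in the 6 EGFR-high and 0.753 to 0.969 in the 6 EGFR-low libraries of the vorinostat experiment, and 1.683 to 2.293 in the 9 untreated libraries. MT-ND6 to MT-ND5, the neighbouring gene on the other strand, was 0.0986 to 0.264 in the EGFR-high and 0.378 to 0.597 in the EGFR-low libraries of the vorinostat experiment. Untreated, that ratio was 0.0367 to 0.114 with overlap of all 3 groups. MT-ND3 made up 6.54% to 8.84% of the 10 mitochondrial genes never listed at 0 in untreated libraries, 20.1% to 29.3% in EGFR-high and 14.1% to 19.9% in EGFR-low libraries of the vorinostat experiment.

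**Figure D2:**
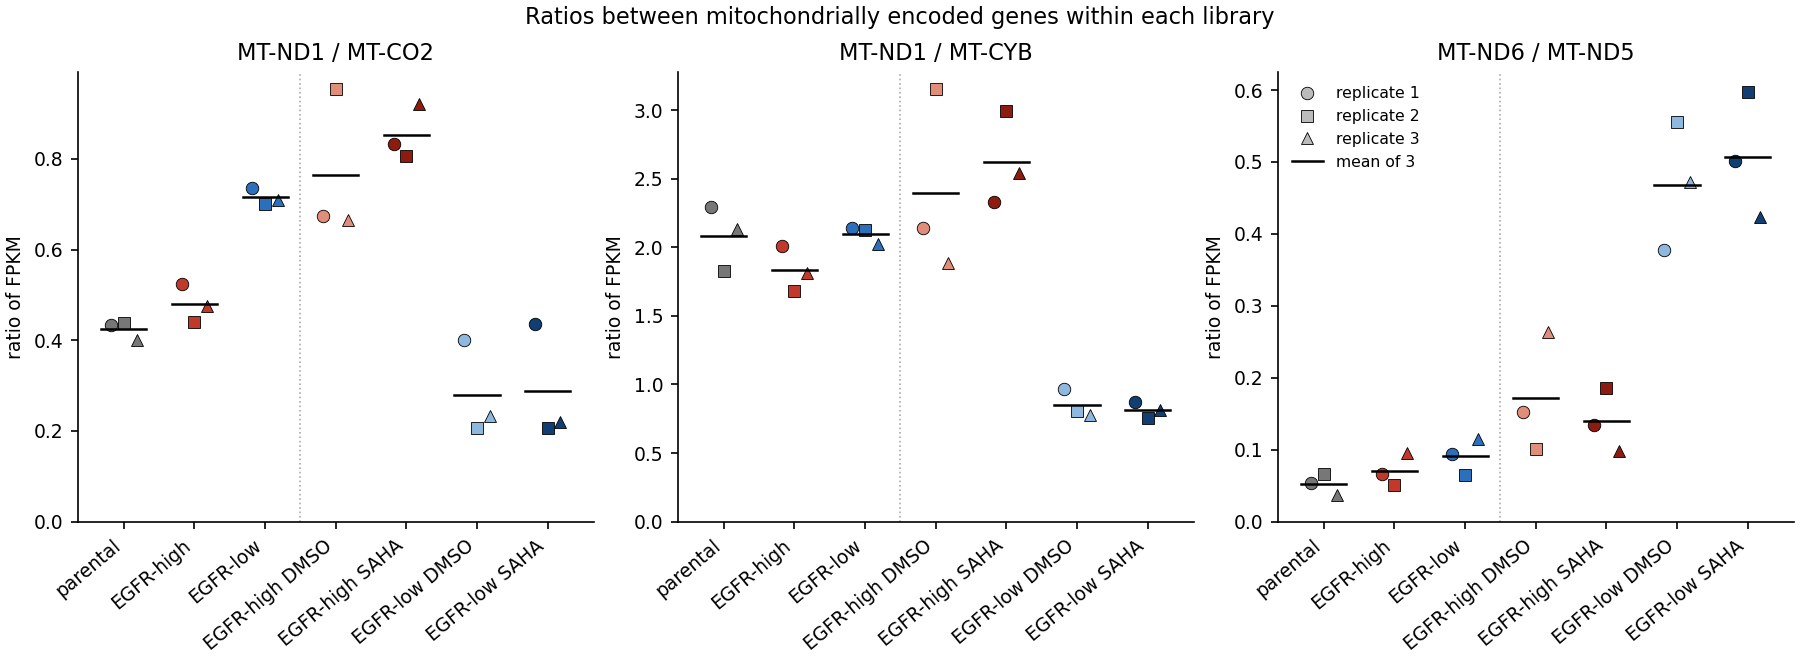
Ratio of FPKM of MT-ND1 to MT-CO2, MT-ND1 to MT-CYB and MT-ND6 to MT-ND5 in each of the 21 libraries, by group; circle, square and triangle mark the libraries numbered 1, 2 and 3. MT-ND1 to MT-CO2 was 0.7 to 0.736 in untreated EGFR-low libraries and 0.207 to 0.436 in EGFR-low libraries of the vorinostat experiment.

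Among the nuclear members of the untreated experiment, limma called 1 of 89 between EGFR-low and EGFR-high cells, lower in EGFR-low, beside 3.81% of all genes, 2.19% lower. This was NDUFAF3, an assembly factor of complex I. It held 7.34, 8.38 and 7.49 FPKM in parental, 12.1, 16.04 and 17.98 in EGFR-high and 5.07, 3.44 and 7.27 in EGFR-low cells. All EGFR-low libraries lay below all parental and EGFR-high libraries, and NDUFAF3 fell against EGFR-high (log2 difference -1.42, SE 0.27, adjusted p = 0.0134) but was not called against parental (log2 difference -0.53, adjusted p = 0.383), except with GC content and length removed, without the block (-0.97, adjusted p = 0.0306) or with it (adjusted p = 0.00744). The call was lost without EGFR-high 2 (adjusted p = 0.0575), EGFR-high 3 (0.0737) or EGFR-low 1 (0.0692), and without the libraries numbered 2 (0.0602). COX6B2, the testis isoform of a complex IV subunit, missed the threshold at a log2 difference of 0.77 (adjusted p = 0.051) and was called with replicate number as a block (adjusted p = 0.0324), which raised the nuclear count to 2 and that of all genes to 965. It was also called without parental 2 (adjusted p = 0.0188), and in 9 of 19 alternatives in all. Its values were 0.436, 0.569 and 0.694 FPKM in EGFR-high and 1.497, 1.68 and 1.85 in EGFR-low cells, near the lowest level tested. The 3 EGFR-low libraries brought it past the filter, with 0 EGFR-high libraries and 1 parental library at 1 FPKM, so its call with the block is partly fixed by the filter. None of 89 was called between EGFR-low and parental or between EGFR-high and parental cells, where 7 and 6 had an unadjusted p under 0.05, and where 1.6% and 0.0708% of all genes were called. Without parental 2, which was highest of its group for 73 of 89 nuclear members, 2 were called against parental, ATP5G2, a c-ring subunit of the ATP synthase (log2 difference 2.14, adjusted p = 0.0421), and COX6B2 (0.89, 0.0344), beside 254 of 11248 genes. Without all libraries numbered 2, an alternative chosen after seeing the data, 0 were called against EGFR-high and 8 against parental, beside 342 and 833 of 11027 genes. With GC content and length removed and the block, 5 were called against EGFR-high (3 higher, 2 lower) and 15 against parental (11 higher, 4 lower). All genes called were then 2495 and 2330 of 11168.

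Replicate number marked the nuclear values of the untreated experiment. The median nuclear difference was 0.02 between EGFR-low and EGFR-high, 0.15 between EGFR-low and parental and 0.16 between EGFR-high and parental, beside -0.03, 0.06 and 0.07 over all genes. None of the 3 medians kept its sign when each library was left out in turn, with lowest values of -0.15 without EGFR-high 1, -0.02 without EGFR-low 2 and -0.09 without EGFR-high 2 and highest values of 0.23 without EGFR-high 2 and, without parental 2, of 0.42 and 0.41. NDUFS5, for example, held 291, 472 and 293 FPKM in parental, 327, 526 and 324 in EGFR-high and 285, 473 and 259.6 in EGFR-low cells, and UQCRH 198, 468 and 223 FPKM in parental, 245, 541 and 266 in EGFR-high and 212, 379 and 245 in EGFR-low cells. For both genes the library numbered 2 was highest in each group. Nuclear complex I subunits summed to 0.495, 0.731 and 0.496% of FPKM in parental, 0.516, 0.749 and 0.585% in EGFR-high and 0.554, 0.781 and 0.602% in EGFR-low libraries, which overlapped. Within each replicate number EGFR-low was higher than EGFR-high, which was not tested.

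In the vorinostat experiment, 41 of 90 nuclear members (45.6%) were called between EGFR-low and EGFR-high cells in DMSO, 28 higher and 13 lower. In SAHA 53 of 90 (58.9%) were called, 42 higher and 11 lower. These shares lay near those of all genes, 51.8% in DMSO (31.1% higher, 20.7% lower) and 59% in SAHA (36.2% higher, 22.8% lower), and are no result about the members. The nuclear median was 0.21 in DMSO (0.14 without EGFR-low DMSO 2) and 0.33 in SAHA, beside 0.12 and 0.16 over all genes. It became 0.082 in DMSO and 0.159 in SAHA with median-of-ratios scaling, and 0.13 in SAHA with GC content and length removed. Median-of-ratios scaling brought the medians of all genes to 0.00 in both, and their higher share of calls from 60.1% to 49.81% in DMSO and from 61.3% to 50.18% in SAHA. With it the higher share of nuclear calls went from 68.3% to 59.5% in DMSO and from 79.2% to 66% in SAHA. With GC content and length removed that share was 60.5% in DMSO and 63.5% in SAHA, beside 52.6% and 53.5% over all genes. With the block added it was 53.3% and 61.4%, beside 52.4% and 53.6%. The DMSO and SAHA comparisons share no library in their means, but both come from 1 fit with a shared estimate of spread. Their calls are therefore not independent. In both, 39 nuclear members were called in the same direction, 95.1% of those called in DMSO and 73.6% of those called in SAHA, beside 93.2% and 81.8% over all genes. Whether the differences in SAHA exceed those in DMSO was tested as an interaction, in which limma called 0 of 90 nuclear members, with 1 at an unadjusted p under 0.05. Without EGFR-low DMSO 1 the nuclear count in DMSO was 40, beside 6069 of 12222 genes. Without the libraries numbered 1, an alternative chosen after seeing the data, the nuclear counts were 41 in DMSO and 52 in SAHA. All genes called were then 7029 and 7706 of 12101.

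**Figure D3:**
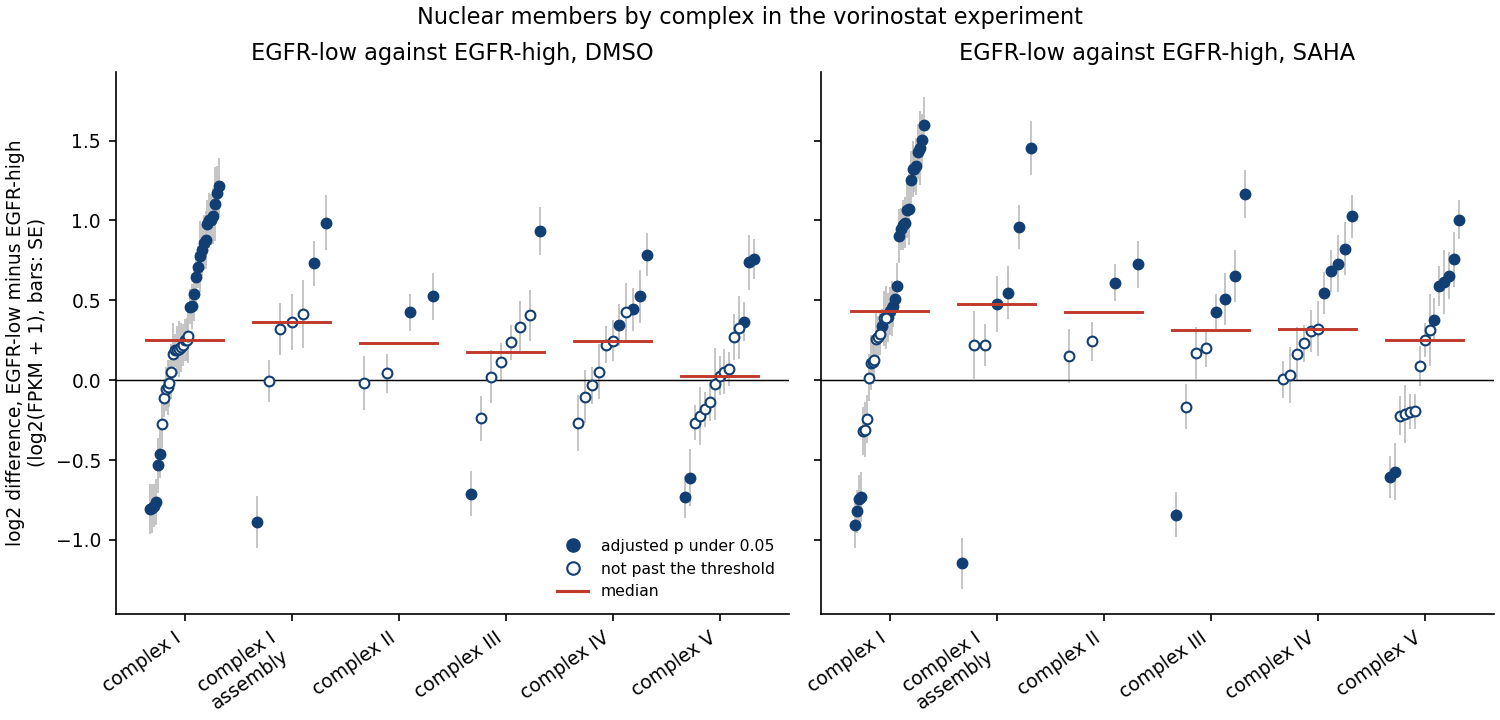
Log2 difference between EGFR-low and EGFR-high cells in DMSO and in SAHA for the nuclear subunits of complexes I to V and the assembly factors of complex I; each point is a gene with its SE, filled where the adjusted p was under 0.05, and the red line is the median of the class. Medians of complex I subunits were 0.25 and 0.43, beside 0.12 and 0.16 over all genes.

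Of the 37 nuclear subunits of complex I, 22 were called in DMSO (59.5%; 16 higher, 6 lower) and 25 in SAHA (67.6%; 21 higher, 4 lower), beside 51.8% and 59% of all genes. NDUFB11, an accessory subunit of the membrane arm, held 18.5, 17.2 and 24.2 FPKM in EGFR-high DMSO and 40.3, 51.7 and 50.1 in EGFR-low DMSO, and 13.95, 21.5 and 16.6 in EGFR-high SAHA and 47.2, 55.3 and 59.5 in EGFR-low SAHA. All 6 EGFR-low libraries were above all 6 EGFR-high libraries, and NDUFB11 rose by the widest margin of the nuclear members called higher in either medium (log2 difference 1.22, SE 0.18, adjusted p = 0.000373 in DMSO, and 1.60, adjusted p = 4.4e-05 in SAHA). NDUFB8, another membrane arm subunit, held 53.1, 56.7 and 80.8 FPKM in EGFR-high DMSO and 110.4, 143 and 128 in EGFR-low DMSO, and 48.8, 56.6 and 46.1 FPKM in EGFR-high SAHA and 144, 148 and 143 in EGFR-low SAHA. It too was separated without overlap and rose on the log2 scale by 1.01 (adjusted p = 0.000469) in DMSO and 1.51 (adjusted p = 3.87e-05) in SAHA. NDUFV1, which carries the flavin that accepts electrons from NADH and was named after its values were seen, held 105, 91.6 and 132 FPKM in EGFR-high DMSO and 183, 232 and 234 in EGFR-low DMSO, and 95.2, 95.1 and 90.95 FPKM in EGFR-high SAHA and 217, 234 and 259 in EGFR-low SAHA. Its groups did not overlap, with log2 differences of 0.98 (adjusted p = 0.000382) in DMSO and 1.32 (adjusted p = 4.29e-05) in SAHA. NDUFB1 (log2 difference 1.17 in DMSO and 1.43 in SAHA), NDUFA13, an accessory subunit also known as GRIM-19 (1.10 and 1.46), and NDUFS7, which binds the last iron-sulfur cluster before ubiquinone (1.03 and 1.34), were also called higher in both. Untreated, NDUFB1 was not called between EGFR-low and EGFR-high (-0.69, adjusted p = 0.574). With GC content and length removed and the block, it was called lower there (-0.75, adjusted p = 0.00439). Against parental it was called lower with both (-0.64, 0.0122) or without the libraries numbered 2 (-0.91, 0.0475).

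Other complex I subunits were lower in the same EGFR-low cells. NDUFS5 held 347, 315 and 288 FPKM in EGFR-high DMSO and 205, 187 and 152 in EGFR-low DMSO, and 252, 350.0 and 244 FPKM in EGFR-high SAHA and 162, 175 and 165 in EGFR-low SAHA. All EGFR-low libraries were below all EGFR-high libraries, and NDUFS5, the nuclear subunit of the complex with the highest mean over the 21 libraries, was called lower, with log2 differences of -0.81 (adjusted p = 0.00138) in DMSO and -0.73 (adjusted p = 0.00181) in SAHA. NDUFC2, a membrane arm subunit, held 276, 256 and 228 FPKM in EGFR-high DMSO and 166, 152 and 119.7 in EGFR-low DMSO, and 203, 267 and 198 FPKM in EGFR-high SAHA and 128, 144 and 122 in EGFR-low SAHA, again without overlap within either medium (-0.80 in DMSO, adjusted p = 0.00134, and -0.75 in SAHA, adjusted p = 0.00148). NDUFA9, which joins the matrix arm to the membrane arm (log2 difference -0.79 in DMSO and -0.82 in SAHA), and NDUFA10 (-0.76 and -0.90) were called lower in both. The complex therefore showed calls in both directions, and the direction of each of NDUFB11, NDUFB8, NDUFB1, NDUFA13, NDUFS7, NDUFS5, NDUFC2, NDUFA9 and NDUFA10 and its call were the same under 25 of 25 alternatives. Summed, nuclear complex I subunits took 0.509, 0.523 and 0.561% of FPKM in EGFR-high DMSO and 0.658, 0.714 and 0.615% in EGFR-low DMSO, which did not overlap. In SAHA the shares were 0.445, 0.567 and 0.4397% and 0.557, 0.672 and 0.665%, which overlapped. Within each replicate number in SAHA the EGFR-low share was the higher one, which was not tested.

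**Figure D4:**
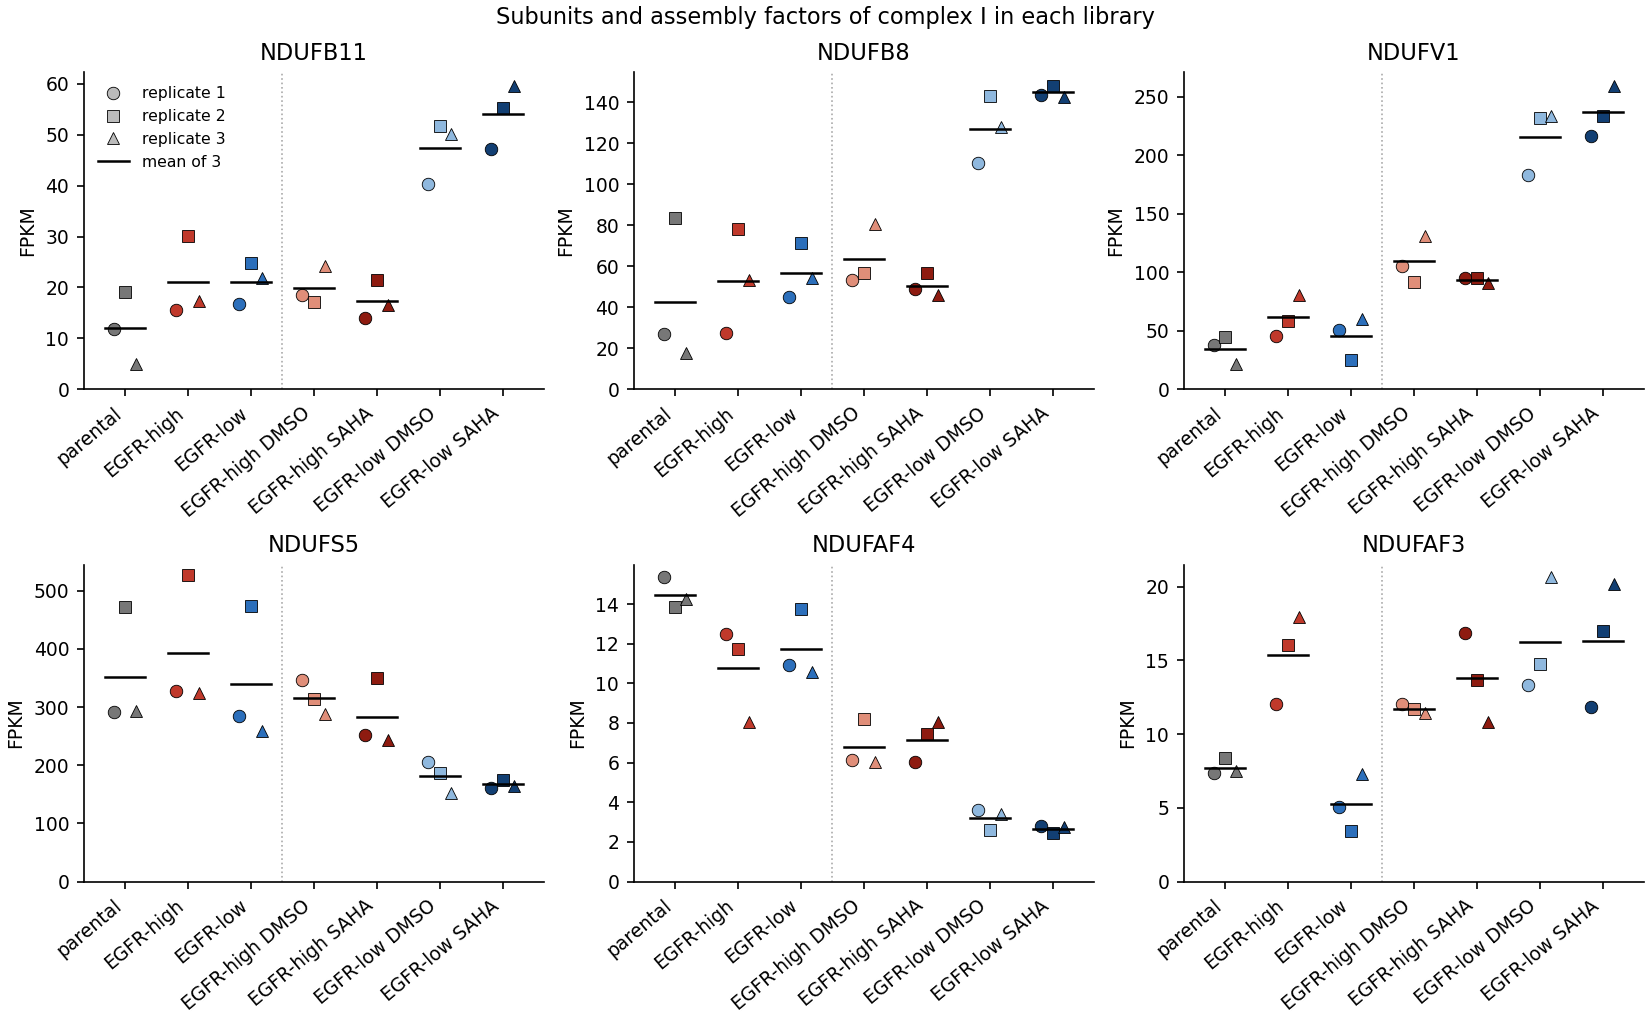
FPKM of the complex I subunits NDUFB11, NDUFB8, NDUFV1 and NDUFS5 and of the assembly factors NDUFAF4 and NDUFAF3 in each of the 21 libraries, by group; circle, square and triangle mark the libraries numbered 1, 2 and 3. In the vorinostat experiment NDUFB11 was 14 to 24.2 FPKM in EGFR-high and 40.3 to 59.5 FPKM in EGFR-low libraries.

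Members were called together in either direction, and their promoters were searched for motifs of 2 factors known to act on respiratory genes. The letters searched were GCGCA, any base and GCGC for NRF1, and CCGGAAGT for the ETS factors, which include GABPA, on both strands of 300 bases from 250 before to 50 after the RefSeq start on GRCh38.p14. Of the 96 nuclear members, 77 had a promoter in the table. NRF1 letters were in 10 (13%) beside 1106 of 27305 promoters (4.05%) over all genes, ETS letters in 9 (11.7%) beside 1211 (4.43%), and either in 18 (23.4%) beside 2204 (8.07%). Either was in 12 of 34 promoters (35.3%) of nuclear members called higher in SAHA and in 1 of 8 (12.5%) of those called lower, with no test. No share was taken over all genes called higher or lower, nor for the calls in DMSO. These shares therefore cannot relate the letters to direction. A match describes letters in a window and is not a measured site. The sequences shown hold matches in capitals and stand for members that were called higher (NDUFA13), called lower (UQCRH) or hold several NRF1 matches (NDUFB4 and NDUFA8, chosen after the search). NDUFB4 (chr3:120596086-120596385, plus strand) held 3 NRF1 matches, NDUFA8 (chr9:122159730-122160029, minus strand) 2 that overlap each other, and NDUFA13 (chr19:19515975-19516274, plus strand) and UQCRH (chr1:46303448-46303747, plus strand) 1 ETS match each, that of UQCRH on the opposite strand.
NDUFB4: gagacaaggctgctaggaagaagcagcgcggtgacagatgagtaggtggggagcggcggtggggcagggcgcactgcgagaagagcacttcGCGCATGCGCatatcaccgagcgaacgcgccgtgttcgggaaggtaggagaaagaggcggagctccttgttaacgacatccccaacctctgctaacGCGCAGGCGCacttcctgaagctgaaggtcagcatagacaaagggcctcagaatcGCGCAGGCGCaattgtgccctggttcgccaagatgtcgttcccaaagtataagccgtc
NDUFA8: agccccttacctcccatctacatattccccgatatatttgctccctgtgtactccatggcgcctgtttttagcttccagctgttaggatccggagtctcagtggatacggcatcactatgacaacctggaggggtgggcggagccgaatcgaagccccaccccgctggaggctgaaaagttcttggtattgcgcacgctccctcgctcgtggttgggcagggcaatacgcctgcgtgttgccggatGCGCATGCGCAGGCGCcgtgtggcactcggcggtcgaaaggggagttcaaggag
NDUFA13: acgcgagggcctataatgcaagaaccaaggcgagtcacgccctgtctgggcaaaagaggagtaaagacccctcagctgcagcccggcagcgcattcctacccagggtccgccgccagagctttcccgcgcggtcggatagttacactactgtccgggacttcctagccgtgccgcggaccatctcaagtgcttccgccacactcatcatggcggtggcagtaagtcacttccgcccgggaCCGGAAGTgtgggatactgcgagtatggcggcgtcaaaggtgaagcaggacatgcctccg
UQCRH: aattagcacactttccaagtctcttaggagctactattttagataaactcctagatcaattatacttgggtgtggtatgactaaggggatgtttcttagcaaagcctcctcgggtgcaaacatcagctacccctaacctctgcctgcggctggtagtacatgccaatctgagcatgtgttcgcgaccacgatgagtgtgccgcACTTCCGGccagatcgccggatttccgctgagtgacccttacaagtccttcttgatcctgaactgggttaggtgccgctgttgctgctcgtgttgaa

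Of the 7 assembly factors of complex I, limma called 3 in DMSO (2 higher, 1 lower) and 5 in SAHA (4 higher, 1 lower), beside 51.8% and 59% of all genes, with medians of 0.36 and 0.48. NDUFAF1, which helps to build the membrane arm, held 9.94, 10.1 and 12.6 FPKM in EGFR-high DMSO and 19.03, 26.9 and 21.9 in EGFR-low DMSO, and 8.54, 9.69 and 6.47 FPKM in EGFR-high SAHA and 21.6, 26.6 and 24.1 in EGFR-low SAHA. NDUFAF4 held 6.13, 8.21 and 6.03 FPKM in EGFR-high DMSO and 3.61, 2.59 and 3.398 in EGFR-low DMSO, and 6.02, 7.43 and 8.05 FPKM in EGFR-high SAHA and 2.81, 2.46 and 2.74 in EGFR-low SAHA. The first was higher and the second lower in every EGFR-low than in every EGFR-high library. The log2 differences of NDUFAF1 were 0.99 (adjusted p = 0.000724) in DMSO and 1.46 (adjusted p = 4.95e-05) in SAHA. Those of NDUFAF4 were -0.89 (adjusted p = 0.000921) and -1.15 (adjusted p = 0.00011). NDUFAF3, a partner of NDUFAF4 in early assembly and the gene called untreated, held 12.1, 11.7 and 11.5 FPKM in EGFR-high DMSO and 13.3, 14.8 and 20.7 in EGFR-low DMSO, and 16.9, 13.7 and 10.9 FPKM in EGFR-high SAHA and 11.8, 16.98 and 20.2 in EGFR-low SAHA. It was not called there, with log2 differences of 0.42 (adjusted p = 0.123) in DMSO and 0.22 (adjusted p = 0.397) in SAHA. Without the libraries numbered 1, an alternative chosen after seeing the data, NDUFAF3 was called higher in DMSO (0.56, adjusted p = 0.0312) and in SAHA (0.57, adjusted p = 0.0261).

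Complex II, succinate dehydrogenase, also serves the tricarboxylic acid cycle. Limma called 2 of its 4 subunits higher in each medium, beside 51.8% of all genes called in DMSO (31.1% higher) and 59% in SAHA (36.2% higher), and the medians of the 4 were 0.23 in DMSO and 0.43 in SAHA. SDHB, the iron-sulfur subunit, held 37.7, 42.8 and 45.03 FPKM in EGFR-high DMSO and 52.6, 60.3 and 56.5 in EGFR-low DMSO, and 36.3, 41.2 and 32.6 FPKM in EGFR-high SAHA and 53.4, 57.5 and 58.1 in EGFR-low SAHA. SDHC, a membrane anchor, held 88.5, 69.8 and 79.6 FPKM in EGFR-high DMSO and 106, 134 and 105 in EGFR-low DMSO, and 66.5, 84.7 and 64.3 FPKM in EGFR-high SAHA and 107, 129 and 120.2 in EGFR-low SAHA. For both genes the EGFR-low libraries lay above the EGFR-high libraries within each medium. SDHB rose on the log2 scale by 0.43 in DMSO, adjusted p = 0.00904, and 0.61 in SAHA, adjusted p = 0.000777. SDHC rose by 0.53 in DMSO, adjusted p = 0.0112, and 0.73 in SAHA, adjusted p = 0.00133. The SDHC call in DMSO was lost without EGFR-high DMSO 2 (adjusted p = 0.0515) or EGFR-low DMSO 2 (0.0576), and with GC content and length removed, without the block (0.0862) or with it (0.0717), at log2 differences of 0.39 to 0.44, and held in 21 of 25 alternatives. The flavoprotein SDHA (-0.02 in DMSO, adjusted p = 0.939, and 0.15 in SAHA, adjusted p = 0.46) and the other anchor SDHD (0.04 in DMSO, adjusted p = 0.788, and 0.24 in SAHA, adjusted p = 0.106) were not called in either medium, with values of 61.7 to 93.6 and 68.3 to 100.4 FPKM over the 12 libraries, although SDHD was called in SAHA without EGFR-high SAHA 2 (adjusted p = 0.0249).

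Complex III had 2 of 8 subunits called in DMSO and 5 of 8 in SAHA, 1 of them lower in each, beside 51.8% and 59% of all genes called, with medians of 0.18 and 0.31. UQCRH held 339, 332 and 311 FPKM in EGFR-high DMSO and 236, 199 and 169 in EGFR-low DMSO, and 382, 391 and 311 FPKM in EGFR-high SAHA and 218, 201 and 182 in EGFR-low SAHA. The small subunit UQCR11, named after its values were seen, held 31.6, 28.8 and 38 FPKM in EGFR-high DMSO and 56.3, 67.1 and 67.02 in EGFR-low DMSO, and 31.4, 35.1 and 24.4 FPKM in EGFR-high SAHA and 66.1, 64.7 and 75 in EGFR-low SAHA. Neither gene overlapped between the cell groups, and they moved in opposite directions. UQCRH fell (-0.71 in DMSO, adjusted p = 0.00159, and -0.84 in SAHA, adjusted p = 0.000355) and UQCR11 rose (0.94 in DMSO, adjusted p = 0.000534, and 1.17 in SAHA, adjusted p = 7.42e-05).

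In complex IV, cytochrome c oxidase, 4 of 11 subunits were called in DMSO and 5 of 11 in SAHA, each of them higher in EGFR-low cells, beside 51.8% and 59% of all genes called and 31.1% and 36.2% called higher, with medians of 0.25 and 0.32. COX5A, named after its values were seen, held 107, 115 and 137 FPKM in EGFR-high DMSO and 192, 223 and 206 in EGFR-low DMSO, and 91.2, 122 and 98.97 FPKM in EGFR-high SAHA and 198, 227 and 209 in EGFR-low SAHA. Its groups did not overlap, with log2 differences of 0.79 in DMSO, adjusted p = 0.000712, and 1.03 in SAHA, adjusted p = 7.97e-05. COX4I1, the nuclear member with the highest mean over the 21 libraries, held 422, 504 and 543 FPKM in EGFR-high DMSO and 592, 664 and 601 in EGFR-low DMSO, and 401, 455 and 377 FPKM in EGFR-high SAHA and 542, 639.6 and 621 in EGFR-low SAHA. The EGFR-low libraries lay above the EGFR-high libraries within each medium. COX4I1 was called in SAHA (0.55, adjusted p = 0.00378) and barely in DMSO (0.34, adjusted p = 0.0455), where the call held in 13 of 25 alternatives and was lost with median-of-ratios scaling (adjusted p = 0.144), no filter on low values (0.0514), only the groups compared (0.0505), GC content and length removed (0.0742) or without the libraries numbered 1 (0.104). It was also lost without EGFR-high DMSO 1 (adjusted p = 0.173) or 2 (0.0777), EGFR-low DMSO 1 (0.0618), 2 (0.15) or 3 (0.0851), or EGFR-low SAHA 2 (0.0609) or 3 (0.0619), and over these losses the log2 difference ran from 0.21 to 0.38. COX8A, whose groups also did not overlap within a medium, rose on the log2 scale by 0.44 in DMSO, adjusted p = 0.0154, and 0.68 in SAHA, adjusted p = 0.000956. The DMSO call was lost without EGFR-high DMSO 2 (adjusted p = 0.0578) or 3 (0.0535) or EGFR-low DMSO 2 (0.0568), with median-of-ratios scaling (0.0854) and with GC content and length removed, without the block (0.0917) or with it (0.0502), at log2 differences of 0.31 to 0.41, and it held in 19 of 25 alternatives. NDUFA4, now counted as a complex IV subunit, held 36.3, 34.8 and 21.01 FPKM in EGFR-high SAHA and 53.03, 51.3 and 46.5 in EGFR-low SAHA and rose there (0.73, adjusted p = 0.00453), but was not called in DMSO (0.43, adjusted p = 0.0657). It was called in DMSO with only the groups compared (adjusted p = 0.0168) or without EGFR-high SAHA 1 (0.0429) or 3 (0.00824), and the SAHA call was lost with GC content and length removed (0.055). COX7A2L, which helps to join complexes III and IV into supercomplexes, held 154, 207 and 154 FPKM in EGFR-high DMSO and 109, 88.1 and 88.4 in EGFR-low DMSO and fell (-0.84 in DMSO, adjusted p = 0.00078, and -0.82 in SAHA, adjusted p = 0.000555).

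The widest difference of the nuclear members lay in COX7B2, an isoform of the complex IV subunit COX7B that is largely restricted to testis in normal tissue. It held 37.4, 149 and 24.8 FPKM in parental, 33.98, 122 and 37.3 in EGFR-high and 41.7, 124 and 54.6 in EGFR-low untreated cells. After DMSO or SAHA it held 67.3, 36.1 and 29.9 FPKM in EGFR-high DMSO and 69.3, 45.4 and 28.4 in EGFR-high SAHA, but 9.75, 0.124 and 0.128 in EGFR-low DMSO and 0.145, 0.234 and 0.3504 in EGFR-low SAHA. COX7B2 passed the filter there through the EGFR-high libraries, so its call is partly fixed by the filter. The alternatives included 1 with no filter on low values. The EGFR-low libraries were near 0 except EGFR-low DMSO 1, whereas the untreated groups overlapped throughout. Within each replicate number the untreated EGFR-low value was higher than that of EGFR-high. Limma called it lower in DMSO (log2 difference -4.16, SE 0.71, adjusted p = 0.0007) and in SAHA (log2 difference -5.21, SE 0.71, adjusted p = 9.75e-05), under 25 of 25 alternatives each, and gave no call untreated (log2 difference 0.28, adjusted p = 0.952). COX7B itself held 14.6 to 26.96 FPKM over the 12 libraries and was not called (0.05 in DMSO, adjusted p = 0.817, and 0.32 in SAHA, adjusted p = 0.127), except in SAHA without EGFR-high SAHA 2 (adjusted p = 0.0474).

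**Figure D5:**
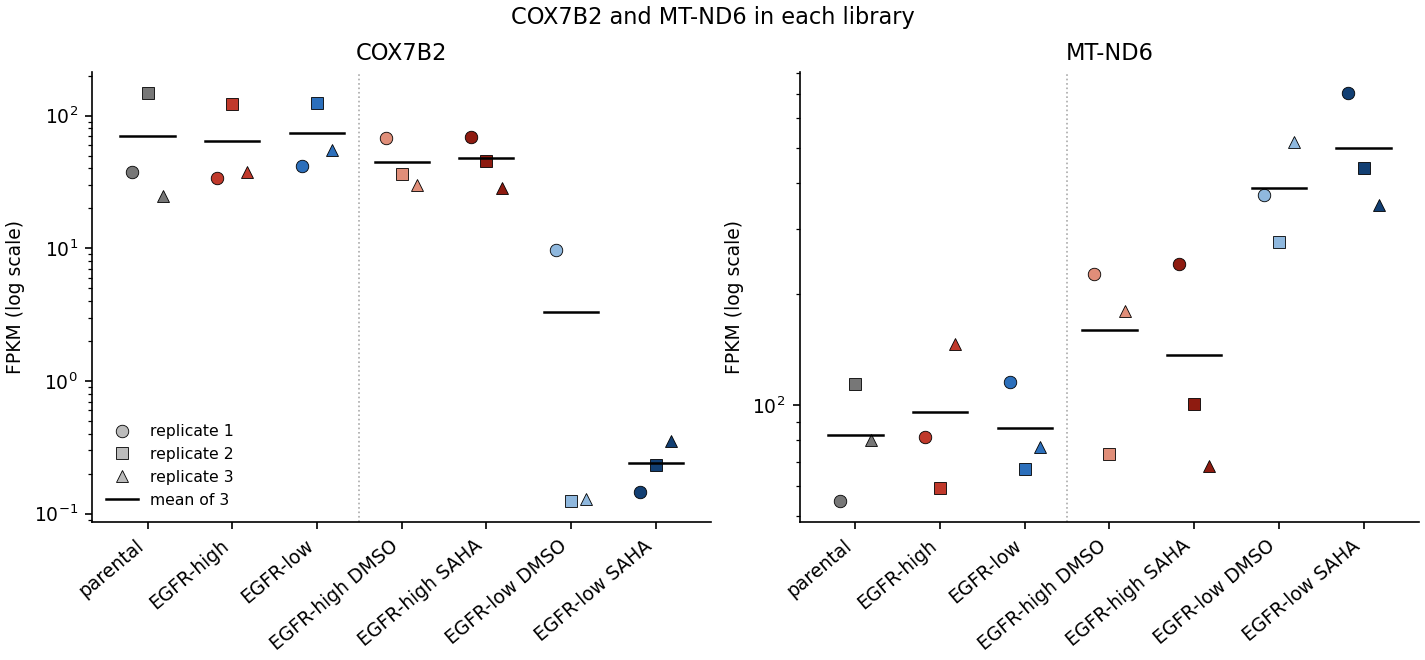
FPKM of COX7B2 and MT-ND6 in each of the 21 libraries on a log axis, by group; circle, square and triangle mark the libraries numbered 1, 2 and 3. COX7B2 was 28.4 to 69.3 FPKM in the EGFR-high libraries of the vorinostat experiment and 0.124 to 0.35 FPKM in the EGFR-low ones, besides 9.75 FPKM in EGFR-low DMSO 1.

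Other isoforms of restricted expression were listed at low values or at 0. COX4I2, COX6A2 and COX7A1, isoforms of lung or of heart and muscle, were listed at 0 in all 21 libraries, and COX8C, NDUFA4L2 and ATP5L2 were under 1 FPKM in each. COX6B2 held 10.5 FPKM in EGFR-high SAHA 1 and at most 1.852 FPKM in the others. It was not called between EGFR-low and EGFR-high cells in DMSO (-0.61, adjusted p = 0.332) or in SAHA (-1.22, adjusted p = 0.0539). It passed in DMSO without EGFR-high SAHA 1 (adjusted p = 0.0125) or with only the groups compared (0.0229), and in SAHA with a pseudocount of 0.1 (0.0396), with replicate number as a block (0.0402), with the block and GC content and length removed (0.0439), or without EGFR-high SAHA 2 (0.0115) or 3 (0.0367). COX6B2 lay near the lowest level tested and had a value in 23 alternatives, against 25 for COX7B2. These calls may therefore be partly fixed by the filter. The common forms were abundant and not called in the vorinostat experiment, COX6A1 at 212 to 272 FPKM, COX6B1 at 101 to 163 FPKM and COX7A2 at 128 to 202 FPKM. For COX6A1 the difference in SAHA was 0.01 (adjusted p = 0.965), and it turned to -0.37 when GC content and length were taken out (adjusted p = 0.0278). With that and the block, COX6B1 (-0.34, adjusted p = 0.0192) and COX7A2 (-0.28, adjusted p = 0.0286) were called lower in DMSO. In the untreated experiment the same alternative called COX6B1 higher in EGFR-low than EGFR-high cells (0.58, adjusted p = 0.0361).

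The ATP synthase had 5 of 15 nuclear subunits called in DMSO (3 higher, 2 lower) and 8 of 15 in SAHA (6 higher, 2 lower), beside 51.8% and 59% of all genes, with medians of 0.03 and 0.25, the first the lowest of the 5 complexes in DMSO. ATP5B, the catalytic beta subunit, held 213, 216 and 263 FPKM in EGFR-high DMSO and 376, 413 and 378 in EGFR-low DMSO, and 187, 229 and 200.4 FPKM in EGFR-high SAHA and 376, 442 and 422 in EGFR-low SAHA. ATP5F1 held 186, 231 and 184 FPKM in EGFR-high DMSO and 125, 121 and 112.3 in EGFR-low DMSO, and 168, 191 and 153 FPKM in EGFR-high SAHA and 98.1, 125 and 112.3 in EGFR-low SAHA. Neither overlapped between groups within a medium, and both were named after their values were seen. The beta subunit rose (0.76 in DMSO, adjusted p = 0.00057, and 1.01 in SAHA, adjusted p = 6.02e-05) and the stalk subunit fell (-0.73 in DMSO, adjusted p = 0.000941, and -0.61 in SAHA, adjusted p = 0.00207). The 3 genes for the same c-ring protein differed. ATP5G3 held 247, 194 and 187 FPKM in EGFR-high DMSO and 147, 150.4 and 113 in EGFR-low DMSO and was called lower in both media (-0.61 in DMSO, adjusted p = 0.0138, and -0.57 in SAHA, adjusted p = 0.0162). The DMSO call was lost without EGFR-high DMSO 1 (adjusted p = 0.062) or EGFR-low DMSO 3 (0.0669), and the SAHA call without EGFR-high SAHA 2 (0.0626). Without the libraries numbered 1, both calls were lost (adjusted p = 0.0565 in DMSO and 0.0841 in SAHA). ATP5G2 held 114, 206 and 163 FPKM in EGFR-high SAHA and 193, 255 and 279.9 in EGFR-low SAHA and was called higher there (0.61, adjusted p = 0.0198), which was lost without EGFR-high SAHA 1 (adjusted p = 0.0647), EGFR-low SAHA 2 (0.0628) or EGFR-low SAHA 3 (0.0811), and with only the groups compared (0.0667). ATP5G1 was not called (-0.02 in DMSO, adjusted p = 0.941, and 0.31 in SAHA, adjusted p = 0.25), except in SAHA without EGFR-high SAHA 1 (adjusted p = 0.0395). ATP5J2 held 310.3, 388 and 276 FPKM in EGFR-high SAHA and 460.4, 552 and 512 in EGFR-low SAHA and was called in SAHA (0.66, adjusted p = 0.00231) but not in DMSO (0.27, adjusted p = 0.139). It was called in DMSO with quantile normalization (0.45, adjusted p = 0.00999) and with each library brought to the same sum over genes other than mitochondrial ones (0.31, adjusted p = 0.048).

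SAHA itself gave no call in the main fit. Limma called 0 of 12236 genes (0%) between SAHA and DMSO within the EGFR-low group, within the EGFR-high group and for the difference between these effects, with 115, 409 and 215 genes at an unadjusted p under 0.05. With no filter on low values, 1 of 17906 genes was called within the EGFR-low group, 0 within the EGFR-high group and 1 for the difference. Of 90 nuclear members, 0, 3 and 1 had an unadjusted p under 0.05, and of 13 mitochondrial genes 0 in each. The nuclear median was 0.02 in EGFR-low cells (-0.02 without EGFR-low DMSO 3 and 0.07 without EGFR-low DMSO 2) and -0.16 in EGFR-high cells (-0.25 without EGFR-high SAHA 2 and -0.08 without EGFR-high SAHA 3), beside -0.03 and -0.06 over all genes. NDUFB8, for instance, held 110.4, 143 and 128 FPKM in EGFR-low DMSO and 144, 148 and 143 in EGFR-low SAHA, and the groups overlapped. Within each replicate number the SAHA value was higher, but with the block 0 genes were called in EGFR-low cells. EGFR averaged 26.8 FPKM in DMSO and 18 FPKM in SAHA in EGFR-low cells (-0.44, adjusted p = 1.0), and 115 FPKM in DMSO and 168 FPKM in SAHA in EGFR-high cells (0.52, adjusted p = 0.94), and neither was called. The EGFR-low mean in DMSO rests on 43.3 FPKM in EGFR-low DMSO 1, since 17.7 and 19.4 FPKM in its replicates lay within the 16.1 to 19.7 FPKM of SAHA. The SAHA labels were not checked against a marker of the treatment, and a p that misses the threshold does not show equal values.

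Genes that assemble or supply the chain were described from lists, again beside 51.8% of all genes called in DMSO and 59% in SAHA. Of 41 assembly genes of the respiratory complexes, 22 were called in DMSO (19 higher, 3 lower) and 22 in SAHA (20 higher, 2 lower), with medians of 0.30 and 0.47. TMEM70, an assembly factor of the ATP synthase, held 6.05, 7.29 and 13.3 FPKM in EGFR-high DMSO and 30.1, 37.5 and 31.96 in EGFR-low DMSO, and 8.28, 7.25 and 6.295 FPKM in EGFR-high SAHA and 43.3, 35.8 and 33.1 in EGFR-low SAHA. The EGFR-low libraries all lay above the EGFR-high libraries, and TMEM70 rose on the log2 scale by 1.85 in DMSO, adjusted p = 0.000327, and 2.21 in SAHA, adjusted p = 3.82e-05. UQCC1, an assembly factor of complex III, rose as well (0.75 and 1.27), as did OXA1L, which inserts proteins into the inner membrane (0.73 and 1.08). Electron carriers and subunits whose symbols fall outside the rule had 5 of 9 called in DMSO (4 higher, 1 lower) and 8 of 9 in SAHA (6 higher, 2 lower), with medians of 0.40 and 0.63. Among them ETFDH, which passes electrons from fatty acid oxidation to ubiquinone, was higher (0.71 in DMSO, adjusted p = 0.00115, and 0.85 in SAHA, adjusted p = 0.000221) and CYC1, the cytochrome c1 of complex III, lower (-0.65 in DMSO, adjusted p = 0.00346, and -0.58 in SAHA, adjusted p = 0.00544).

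Of 14 enzyme genes of the tricarboxylic acid cycle, 10 were called in DMSO (8 higher, 2 lower) and 13 in SAHA (10 higher, 3 lower), with medians of 0.50 and 0.64. Beside these and the next lists, 51.8% of all genes were called in DMSO (31.1% higher) and 59% in SAHA (36.2% higher). IDH3A, the catalytic subunit of the NAD-dependent isocitrate dehydrogenase, held 19.2, 26.7 and 32.9 FPKM in EGFR-high DMSO and 57.4, 67.4 and 64.7 in EGFR-low DMSO, and 19.4, 23.95 and 25.9 FPKM in EGFR-high SAHA and 58.6, 61.4 and 61.8 in EGFR-low SAHA. It was separated without overlap (1.26 in DMSO, adjusted p = 0.000328, and 1.37 in SAHA, adjusted p = 6.57e-05). For pyruvate entry 7 of 14 were called in DMSO (5 higher, 2 lower) and 11 of 14 in SAHA (8 higher, 3 lower), with medians of 0.28 and 0.41. MPC1, a subunit of the mitochondrial pyruvate carrier, was higher (1.2 and 1.75), and so were PDK3, a kinase that inhibits pyruvate dehydrogenase (1.46 and 2.01), and PDP1, the phosphatase that acts against such kinases (1.48 and 1.5). The PDP1 call was lost in DMSO without EGFR-high DMSO 2 (adjusted p = 0.0742) and in SAHA without EGFR-high SAHA 2 (0.0538) or EGFR-low SAHA 1 (0.0549). Of 22 glycolysis genes 8 were called in DMSO (6 higher, 2 lower) and 10 in SAHA (8 higher, 2 lower), with medians of 0.18 and 0.12. The neuronal-type glucose transporter gene SLC2A3 was the 1 list gene called in the untreated experiment, where limma called 0 of each other list, with 0 to 9 genes of a list at an unadjusted p under 0.05. Of all genes, 3.81% were called there between EGFR-low and EGFR-high, 1.6% between EGFR-low and parental and 0.0708% between EGFR-high and parental. With replicate number as a block, 7 of the other 11 lists had 1 gene called between EGFR-low and EGFR-high, beside 965 of 11305 genes. Among them were MPC1 (0.83, adjusted p = 0.0367), YY1 (-0.57, adjusted p = 0.0465) and KRT8 (-0.72, adjusted p = 0.0485). SLC2A3 held 13.4, 12.5 and 11.3 FPKM in parental, 17.4, 22.9 and 13.4 in EGFR-high and 1.58, 1.296 and 1.45 in EGFR-low untreated cells. Its EGFR-low values lay far below the others, and it fell against EGFR-high (log2 difference -2.92, SE 0.24, adjusted p = 5.82e-05) and parental (-2.45, adjusted p = 0.000459). After DMSO or SAHA SLC2A3 held 26.95, 31.6 and 59.6 FPKM in EGFR-high DMSO, 22.3, 7.43 and 7.67 in EGFR-low DMSO, 58.3, 69.3 and 68.8 in EGFR-high SAHA and 13.5, 7.11 and 8.28 in EGFR-low SAHA, with no overlap and calls in both media (-1.67 in DMSO, adjusted p = 0.00408, and -2.69 in SAHA, adjusted p = 0.000142). GAPDH, a glycolytic enzyme often used as a reference, was lower too (-0.94 and -0.85). Yet 6 of the 8 glycolysis genes called in DMSO and 8 of the 10 in SAHA were higher. The phosphofructokinase gene PFKM, for instance, averaged 14.9 FPKM in EGFR-high DMSO and 26.25 in EGFR-low DMSO. In SAHA it averaged 14.63 FPKM in EGFR-high and 31.31 in EGFR-low cells.

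Genes that act on mitochondrial DNA and RNA stand beside 51.8% of all genes called in DMSO (31.1% higher) and 59% in SAHA (36.2% higher). Of 9 regulators of mitochondrial biogenesis 4 were called in each medium, each of them higher, with medians of 0.48 and 0.49. PPARGC1B, a coactivator of respiratory genes, was among them (log2 difference 0.90 and 0.99), but it passed the filter only through the EGFR-low libraries, 6 of 6 of which reached 1 FPKM against 1 of 6 EGFR-high libraries, so its call is partly fixed by the filter. Another was YY1 (0.66 in DMSO, adjusted p = 0.0297, and 0.69 in SAHA, adjusted p = 0.0218). The YY1 call in DMSO was lost without EGFR-high DMSO 1 (adjusted p = 0.116) or 2 (0.0683), EGFR-low DMSO 2 (0.0865) or 3 (0.0873), and with no filter on low values (0.0515). In SAHA it was lost without EGFR-high SAHA 1 (adjusted p = 0.0709), EGFR-low SAHA 2 (0.0748) or 3 (0.0664), and with only the groups compared (0.0528). Of 15 genes for maintenance and transcription of mitochondrial DNA, 5 were called in DMSO and 7 in SAHA, each of them higher, among them the polymerase POLG (0.83 and 0.87) and the transcription factor TFB2M (0.74 and 0.63). Mitochondrial RNA processing had 8 of 19 called in DMSO (5 higher, 3 lower) and 11 of 19 in SAHA (8 higher, 3 lower), with medians of 0.10 and 0.04. TRMT10C, part of the enzyme that releases transfer RNAs from the precursor, was lower (-1.05 in DMSO, adjusted p = 0.000384, and -1.11 in SAHA, adjusted p = 0.000118), and FASTKD1 (0.99 and 1.35) and the RNase Z gene ELAC2 (0.75 and 1.08) were higher. Whether these genes bear on the mitochondrial ratios was not tested.

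Ribosomal genes and markers completed the lists, beside the same 51.8% of all genes called in DMSO (31.1% higher) and 59% in SAHA (36.2% higher). Of 76 mitochondrial ribosomal genes 32 were called in DMSO (19 higher, 13 lower) and 39 in SAHA (28 higher, 11 lower), with medians of 0.14 and 0.23. Their ends were MRPS6 (1.69 and 1.69) and MRPS17 (-1.12 and -1.53). Of 83 cytosolic ribosomal genes tested, 38 were called in DMSO (8 higher, 30 lower) and 48 in SAHA (17 higher, 31 lower). Of all genes, 20.7% and 22.8% were called lower. The medians were -0.21 and -0.16, beside 0.12 and 0.16 over all genes. Of 6 epithelial markers tested, 4 were called in DMSO (1 higher, 3 lower) and 5 in SAHA (2 higher, 3 lower). The keratin genes KRT8 (-1.46 and -2.16) and KRT19 (-1.32 and -1.66) were lower in EGFR-low cells, and the adhesion gene CDH1 was higher (1.06 and 0.91). Of 12 markers of other cell types 4 passed the filter on low values, and CD14 alone was called, in DMSO (0.82, adjusted p = 0.0231) and in SAHA (1.54, adjusted p = 0.000449). CD14 passed the filter through the EGFR-low libraries alone, of which 5 of 6 reached 1 FPKM against 0 of 6 EGFR-high libraries, so its call is partly fixed by the filter. The DMSO call was lost without EGFR-high DMSO 1 (adjusted p = 0.0751) or 2 (0.0858) or EGFR-low DMSO 2 (0.0946), and with a pseudocount of 5 (0.0687). Between SAHA and DMSO, limma called 0 genes of each of the 12 lists, with at most 2 of a list at an unadjusted p under 0.05.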

How the data were processed

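RNA was sequenced in 21 PC-9 libraries, 3 in each of 7 groups. The submitters' processing notes name STAR 2.5.1b, Cufflinks 2.2.1 and the hg19 build, and the authors deposited 1 table of values per experiment, each with 20111 genes. The deposited values are not whole numbers and carry no library totals, so they were taken as FPKM, fragments per kilobase and mapped fragments, inferred from the tools named, although the files are named as gene counts. For that reason no count test was used, depth is unknown, and precision rests on the spread of 3 replicates. The study describes the replicates as separate experiments.

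A gene was tested where 3 or more libraries of the experiment reached 1 FPKM, a pseudocount of 1 was added, and log2 values were fitted with limma 3.58.1 in R 4.3.3, with a trend of variance on level, over all groups of the experiment, with Benjamini-Hochberg adjustment over all genes tested. Of the nuclear members 89 and 90 passed, and of the mitochondrial genes 13 in each. The fit was first tested on simulated data. Genes were named by rule: each mitochondrial gene, each complex II gene, the most abundant nuclear subunit of the other complexes, up to 5 nuclear members called in each direction per comparison, the isoform families, up to 3 called genes per list and comparison, and EGFR. NDUFV1, UQCR11, COX5A, ATP5B, ATP5F1, NDUFB4 and NDUFA8 were named after their values or promoters were seen, as were the traces of PTPRC and CD3E and the zeros of EEF1A1. The members and the 12 gene lists were chosen with earlier results of these data known.

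Pairing by replicate number was checked by the correlation of deviations from group means for libraries of the same number. It was above 0.1 for each number between untreated EGFR-low and EGFR-high (0.343, 0.73 and 0.689), between EGFR-low and EGFR-high in SAHA (0.353, 0.351 and 0.163) and between SAHA and DMSO in EGFR-low cells (0.267, 0.302 and 0.329), which met the condition set for pairing. The differences and p-values given carry no block unless it is named, and the block was an alternative. For these comparisons it is given where it changed the call of a named gene or moved a count of calls by over 1.5 times, and for the others its effect is given among the alternatives. Promoter sequences are from RefSeq on GRCh38.p14.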

Additional observations from a re-analysis of the deposited data

How the results depend on the processing

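Results were recomputed with other pseudocounts, filters, scalings and sets of samples, with removal of trends in GC content and transcript length, with replicate number fitted as a block, and without each library in turn. Zeros of abundant genes as missing, the vorinostat experiment without the libraries numbered 1 and the untreated experiment without those numbered 2 were added after seeing the data. The nuclear counts in DMSO (41) and SAHA (53) stayed between 32 and 48 and between 46 and 62. The main fit called 6334 and 7222 of 12236 genes. The 32 came without EGFR-high DMSO 2, beside 5034 of 12213 genes. The 48 came with only the groups compared (7058 of 12236) or the same sum over genes other than mitochondrial ones (6570 of 12225). The 46 came without EGFR-low SAHA 2 (6231 of 12202) or 3 (6238 of 12196), and the 62 without EGFR-high SAHA 2 (6757 of 12194).

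The untreated nuclear count of EGFR-low against EGFR-high, 1, became 2 with no filter on low values, with median-of-ratios scaling, with the same sum over genes other than mitochondrial ones, with quantile normalization, with only the groups compared and with GC content and length removed, and 0 without the libraries numbered 2. With the replicate block it was 2, and with the block and GC content and length removed 5, beside 965 of 11305 and 2495 of 11168 genes. Under the other settings named, all genes called ran from 342 of 11027 to 945 of 11168. Against parental, the count of 0 became 1 with GC content and length removed, 15 with the replicate block added and 8 without the libraries numbered 2, beside 534 of 11168, 2330 of 11168 and 833 of 11027 genes, and the mitochondrial median of -0.55 became -0.083 with quantile normalization and -0.151 with GC content and length removed, with or without the block.

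In DMSO the nuclear median, 0.21, became 0.082 with median-of-ratios scaling. The mitochondrial count there, 1, became 0 with no filter, with median-of-ratios scaling or with GC content and length removed, 2 with the replicate block or without the libraries numbered 1, and 3 with the block and GC content and length removed. Where it was 0, all genes called were 6979 of 17906, 6378 of 12213 and 6480 of 12088, in that order. Where it was 2 they were 6789 of 12236 and 7029 of 12101, and where it was 3, 6867 of 12088. In SAHA the nuclear median, 0.33, became 0.159 with median-of-ratios scaling and 0.13 with GC content and length removed, with or without the block. The mitochondrial count, 1, became 2 with quantile normalization or with GC content and length removed, and 4 with the replicate block, with both, or without the libraries numbered 1. Where it was 2, all genes called were 7207 of 12236 and 7245 of 12088, in that order. Where it was 4, they were 7632 of 12236, 7644 of 12088 and 7706 of 12101. COX6A1 reversed in SAHA, from 0.01 to -0.367 with GC content and length removed, with or without the block. The cause was not tested.

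Leaving out 1 library gave 0 to 2 nuclear calls for untreated EGFR-low against EGFR-high, 0 to 2 against parental, a mitochondrial median against parental of -0.755 to -0.178, 0 to 1 mitochondrial calls in DMSO and 1 to 3 in SAHA, and a nuclear median of 0.138 to 0.254 in DMSO and of 0.261 to 0.452 in SAHA. All genes called then ran from 174 of 11217 to 495 of 11248 against EGFR-high untreated and from 33 of 11217 to 254 of 11248 against parental. In DMSO they ran from 4901 of 12193 to 7179 of 12189, and in SAHA from 6231 of 12202 to 7502 of 12189.

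Replicate numbers did not pair EGFR-low and EGFR-high in DMSO (correlations 0.251, -0.207 and 0.285), where the replicate block gave 44 nuclear calls against 41 (6789 against 6334 of 12236 genes) and called MT-ND1 lower (-0.91, adjusted p = 0.0131). Nor did they pair either untreated group with parental (0.587, 0.416 and -0.092 for EGFR-low; 0.434, 0.757 and -0.002 for EGFR-high) or SAHA with DMSO in EGFR-high cells (0.06, 0.189 and -0.143). Of the values for named genes under the alternatives, 61 were newly called, 83 lost the call and 2 reversed with a call. Some differences that were not called changed sign, such as that of MT-ND6 between untreated EGFR-low and EGFR-high, which ran from -0.38 to 0.27.

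Depth is unknown, so counting error was not set beside the spread of the 3 replicates of a group. Short transcripts and mitochondrial genes are measured with less certainty than their FPKM implies. Nuclear members were shorter than all genes with a length, with a median transcript length of 1426 against 3189 bases, and GC content and length were removed together, so that their parts in the moves of the medians cannot be told apart.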
